A study of Mus musculus with 6 samples.

Results

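Costimulatory and checkpoint molecules are surface proteins through which macrophages and other antigen-presenting cells set the strength of a T cell response. CD80 and CD86, ligands of the B7 family, engage CD28 to activate T cells or CTLA-4 to restrain them, while the related ligands PD-L1 (Cd274) and PD-L2 (Pdcd1lg2) bind the inhibitory receptor PD-1. CD40 receives the T cell signal CD40L and drives NF-kB, a transcription factor that in turn supports CD80 and CD86 expression in antigen-presenting cells. CD38, SLAMF1 and TIM-3 (Havcr2) are further surface molecules of activated or regulated immune cells.

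The 10 genes described here, Cd28, Cd80, Cd86, Icosl, Cd274, Pdcd1lg2, Cd40, Cd38, Slamf1 and Havcr2, were taken by symbol from a gene count table of 55335 genes, where each has 1 row. The samples were macrophages derived from mouse bone marrow, which are primary cells, cultured in medium with 20 ng/mL macrophage colony-stimulating factor. In one group, PAC-CM-KD, the macrophages received medium conditioned by injured pancreatic acinar cells together with 400 µM kinsenoside (KD), a plant glycoside, in 3 libraries. In the other, PAC-CM, they received the conditioned medium without kinsenoside, also in 3 libraries. All 6 libraries thus share the growth factor and the conditioned medium, which was added on day 5, and no macrophages without the medium are among the samples. The mouse strain, age and sex are not in the labels, nor is the origin of the replicates (separate cultures, separate animals or neither). The p-values therefore describe variation among these libraries, part or all of which may be technical.

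Total counts were 41125059 to 43434292 in the kinsenoside libraries and 43054066 to 47461702 in the PAC-CM libraries. Kinsenoside replicate 1 stood apart from the other libraries on the second principal component, which held 23.6% of the variance. The labelled cell type was checked against its markers. The 10 macrophage marker genes (Adgre1, Csf1r, Cd68 and others, 11 rows) summed to 23035 to 25849 CPM (the count scaled to a library total of 1e6) in the kinsenoside libraries and 21120 to 23191 CPM in the PAC-CM libraries, with Lyz2 and Cd14 the most abundant. The lists of B and plasma cells (Ighm and Igkc most abundant), of fibroblasts (Pdgfrb and Dcn) and of pancreatic acinar cells (Cela1 and Ctrb1) summed to at most 7.92 CPM in any library. The dendritic cell list summed to 161 to 239 CPM with kinsenoside and 190 to 232 CPM without. Itgax, which macrophages also express, was its most abundant gene, followed by Xcr1. The NK and innate lymphoid list summed to 752 to 822 CPM with kinsenoside and 712 to 779 CPM without. Nearly all of that was Il7r, the next gene, Klrb1c, had at most 7 counts, and Ncr1, Prf1 and Eomes were at 0 in every library. In bulk RNA, a change in the number of cells of a type cannot be told apart from a change in the RNA per cell.

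The 10 genes were expressed over a wide range. Per kilobase of exon, the PD-L1 gene Cd274 stood highest and the PD-L2 gene Pdcd1lg2 lowest, and the 2 differed 987-fold in mean level. Cd274 ranked 90 among the 13891 tested genes with an exon length. Cd38 ranked 582, Cd40 1096, Cd86 1459, Slamf1 1756 and Havcr2 2106. Cd28 ranked 6568, Cd80 8254, Icosl 10097 and Pdcd1lg2 11094. The per-kilobase levels of Cd86 and Slamf1, neighbours in this order, overlapped between libraries, as did those of Slamf1 and Havcr2. The order rests on GENCODE M21 exon lengths and not on the isoforms these cells use.

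**Figure D1:**
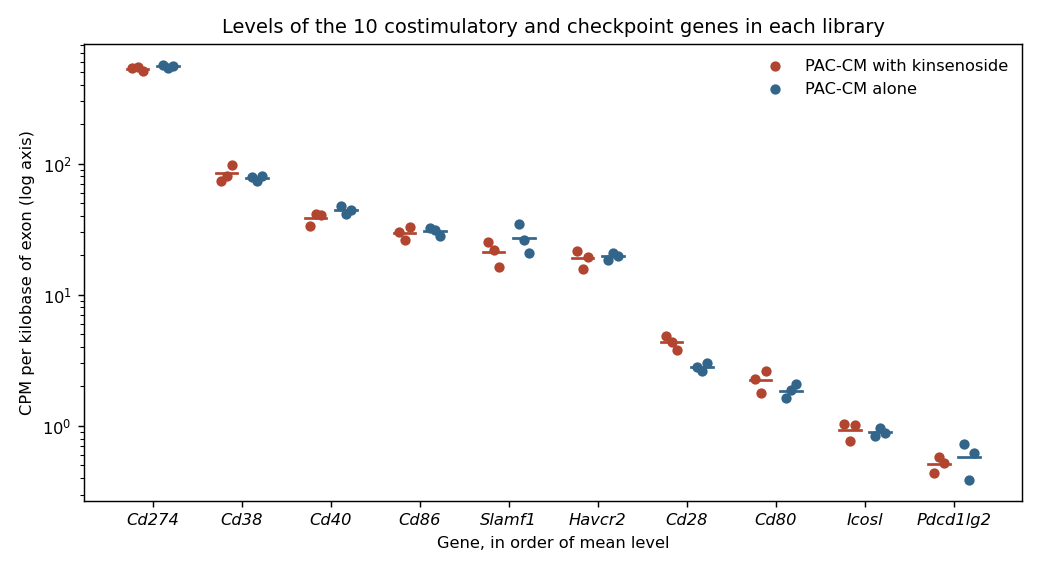
CPM per kilobase of exon (log axis) of the 10 genes in each library, with kinsenoside at the left of each pair and PAC-CM alone at the right; points are libraries and bars are group means (n = 3 each). Cd274 averages 529 with kinsenoside and 550 in PAC-CM, Pdcd1lg2 lies below 1, and Cd28 is the gene whose 3 kinsenoside points all lie above its 3 PAC-CM points.

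Of the 10 genes, Cd28 rose with kinsenoside, none fell, and 9 did not pass the test. All 10 were abundant enough to be tested. The test was the quasi-likelihood F-test of edgeR, adjusted by Benjamini-Hochberg over 13901 genes and a threshold of 0.05, which called 0.511% of all tested genes, 0.209% as higher and 0.302% as lower. Cd28 was the 1 member with an unadjusted p under 0.05, a level that 14.9% of all tested genes reached. DESeq2 also called Cd28 and no other member, against 3.80% of the genes it adjusted, and limma-voom called no member, against 0.281%. The 3 libraries of one group lay wholly above those of the other for 1 of the 10 genes, against 22.5% of all tested genes. That gene, Cd28, was higher with kinsenoside, as were 6.86% of all tested genes in the same way, and no member was lower throughout, against 15.7%. These overlaps were read from CPM on library totals, without the TMM scaling factors of the edgeR fit. The factors were 0.979 to 0.990 with kinsenoside and 1.013 to 1.019 in PAC-CM. With total count scaling, the median log2 fold change over all tested genes was -0.0498. The median log2 fold change of the 10 was -0.00, with 5 estimates above and 5 below 0, beside a median of -0.01 over all tested genes.

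**Figure D2:**
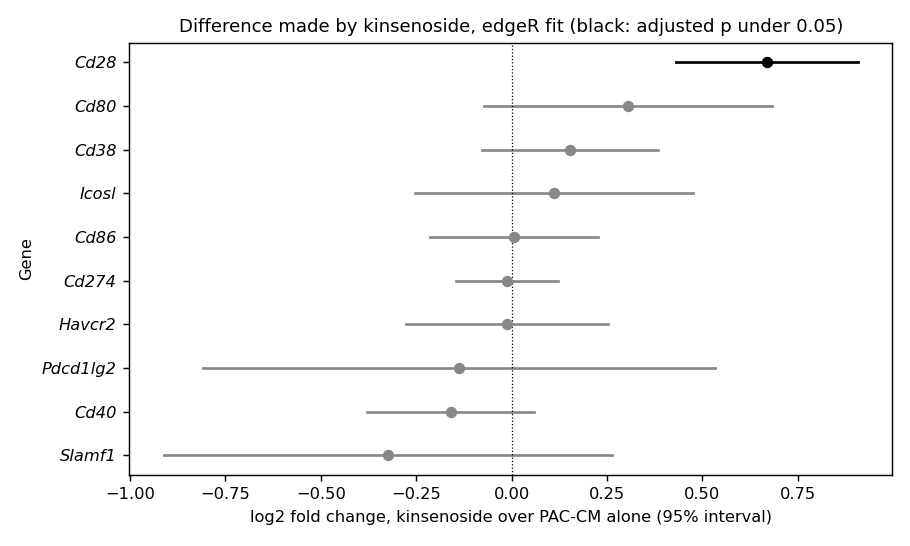
Log2 fold change of each gene, PAC-CM with kinsenoside over PAC-CM alone, with its 95% interval from the edgeR fit (3 libraries per group); black marks an adjusted p under 0.05. The interval of Cd28 runs from 0.43 to 0.91, and the other 9 intervals include 0.

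Cd28 encodes the receptor for CD80 and CD86 and is best known as the costimulatory receptor of T cells. The gene (ENSMUSG00000026012) lies on the plus strand at chr1:60716800-60773359 in GRCm38 and shares no exon bases with another gene. It had 1286, 1134 and 956 counts in kinsenoside replicates 1 to 3, against 744, 762 and 810 counts in PAC-CM replicates 1 to 3. As a share of each library this was 29.6, 26.9 and 23.2 CPM with kinsenoside and 17.3, 16.1 and 18.4 CPM without. Every kinsenoside library was above every PAC-CM library, and the gap was narrowest between kinsenoside replicate 3 and PAC-CM replicate 3. The mean was 26.6 ± 3.19 CPM with kinsenoside and 17.2 ± 1.15 CPM in PAC-CM (SD, n = 3 each), and the log2 fold change was 0.67 (SE 0.104, adjusted p = 0.0412).

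The call of Cd28 lay close to the threshold. Without kinsenoside replicate 1, the library that stood apart, the log2 fold change was 0.58 and the adjusted p 0.0550. The call was also lost without kinsenoside replicate 2 (adjusted p = 0.144) and without any 1 of the PAC-CM libraries (adjusted p between 0.105 and 0.165), and it was kept without kinsenoside replicate 3 (adjusted p = 0.0412). Over the 15 alternatives Cd28 stayed higher with kinsenoside in 15 and passed in 7, with adjusted p between 3.86e-05 and 0.165.

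Since Cd28 is foremost a T cell gene, T cell markers were read beside it. The 17 T cell marker genes summed to 16.97 to 23.2 CPM in the kinsenoside libraries and 15.6 to 24.8 CPM in the PAC-CM libraries. Only 3 of them, Cd4, Lat and Lck, were abundant enough to be tested, and none of these was called. Cd4, with 327 to 647 counts with kinsenoside and 251 to 647 without, and Lat, with 209 to 257 and 203 to 404, made up most of this. Of the T cell receptor complex genes, Cd3d and Trbc2 were at 0 in all 6 libraries, and Cd3e, Cd3g, Trac and Trbc1 were at 0 in every kinsenoside library and had at most 9 counts in any PAC-CM library. Cd247, the CD3 zeta gene, had 9, 0 and 5 counts with kinsenoside and 20, 3 and 5 counts in PAC-CM. Of the kinase genes of T cell receptor signalling, Lck had 77, 142 and 142 counts with kinsenoside and 112, 142 and 89 counts in PAC-CM (adjusted p = 0.770), and Zap70 had at most 4 counts in any library.

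The summed levels of the neutrophil list and of the mast cell and basophil list did not overlap between the groups. No gene of either list was called. Among single genes, 22.5% of all tested genes did not overlap in CPM. The neutrophil list (9 genes) summed to 113 to 169 CPM with kinsenoside and 66.7 to 83.8 CPM without. Most of it was Mmp8, a collagenase gene, with 5465, 3351 and 3644 counts with kinsenoside and 1257, 2077 and 1601 counts without (adjusted p = 0.0716), and S100a8, which overlapped between the groups at 1266 to 1815 and 1257 to 1848 counts. The granule genes Camp, with 30, 28 and 12 counts with kinsenoside and 16, 14 and 10 without (log2 fold change 0.92, adjusted p = 0.368), and Ngp, with 7, 38 and 25 counts with kinsenoside and 3, 6 and 15 without (log2 fold change 1.66, adjusted p = 0.336), had higher estimates but did not pass. S100a9 had 6 to 69 counts with kinsenoside and 7 to 77 without, Cxcr2 at most 5 in any library, and Ly6g, Elane and Mpo at most 3. The part of these markers in the result for Cd28 was not tested. The mast cell and basophil list (7 genes) summed to 59.7 to 69.0 CPM with kinsenoside and 74.7 to 88.1 CPM without. Nearly all of it was Hdc, the histidine decarboxylase gene (log2 fold change -0.27, edgeR adjusted p = 0.204). The next gene, Prss34, had at most 5 counts, and Mcpt8, Mcpt4, Fcer1a and Ms4a2 were at 0 throughout.

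The genes whose level profile over the 6 libraries was most like that of Cd28 were found by Euclidean distance between log2 CPM values centred on each gene's mean, among 8761 other genes averaging 5 CPM or more. They were Eps8 (distance 0.229), an actin regulator, Perm1 (0.259), Arhgap19 (0.278), Slc25a25 (0.281), a mitochondrial carrier gene, and Ccdc12 (0.283). Eps8 was at 44.5 ± 5.38 CPM with kinsenoside and 32.4 ± 1.15 CPM without. Of these 5 genes Ccdc12 passed the test (27.9 ± 0.691 CPM with kinsenoside and 19.7 ± 0.170 CPM without, adjusted p = 0.0219), and the other 4 had adjusted p between 0.0601 and 0.1. The likeness uses the same libraries as the test of Cd28 and describes level only.

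The classical ligands of CD28 were measured at very different levels. Cd86 (ENSMUSG00000022901, minus strand, chr16:36603869-36666081) had 111, 95.8 and 120 CPM in kinsenoside replicates 1 to 3 and 119, 113 and 103 CPM in PAC-CM replicates 1 to 3. Cd80 (ENSMUSG00000075122, plus strand, chr16:38455561-38496335) had 8.496, 6.64 and 9.65 CPM with kinsenoside and 5.99, 6.91 and 7.78 CPM without. The groups overlapped for both genes, and kinsenoside replicate 2 was the lowest kinsenoside library for both. Per kilobase of exon, Cd86 stood at 29.7 ± 3.29 CPM with kinsenoside and 30.5 ± 2.19 CPM in PAC-CM, and Cd80 at 2.23 ± 0.411 CPM with kinsenoside and 1.86 ± 0.241 CPM in PAC-CM.

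Neither ligand passed the test. The log2 fold change was 0.31 for Cd80 (adjusted p = 0.432), with a 95% interval of the fold from 0.952 to 1.61. For Cd86 it was 0.01 (adjusted p = 0.987), with an interval from 0.862 to 1.17. The interval was wider for Cd80. That gene had 280 to 397 counts in the kinsenoside libraries and 258 to 343 in the PAC-CM libraries, and the part of depth in the width was not tested.

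Ratios between genes within a library do not depend on scaling between libraries, so 4 were compared as log2 ratios of counts, with 1 added to each count or sum and no correction for gene length. With 3 libraries against 3, the exact two-sided permutation test cannot go below p = 0.1. Cd28 counts relative to Cd80 plus Cd86 counts were 0.249, 0.263 and 0.180 in kinsenoside replicates 1 to 3 and 0.139, 0.134 and 0.166 in PAC-CM replicates 1 to 3. The groups did not overlap, the mean log2 ratio differed by 0.64, and the exact p was 0.1, the smallest possible (0.4 after adjustment over the 4 ratios). Cd86 counts per Cd80 count were 13.0, 14.4 and 12.4 with kinsenoside and 19.7, 16.3 and 13.2 without. These values overlapped between the groups (log2 difference -0.29, exact permutation p = 0.2, adjusted 0.4).

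**Figure D3:**
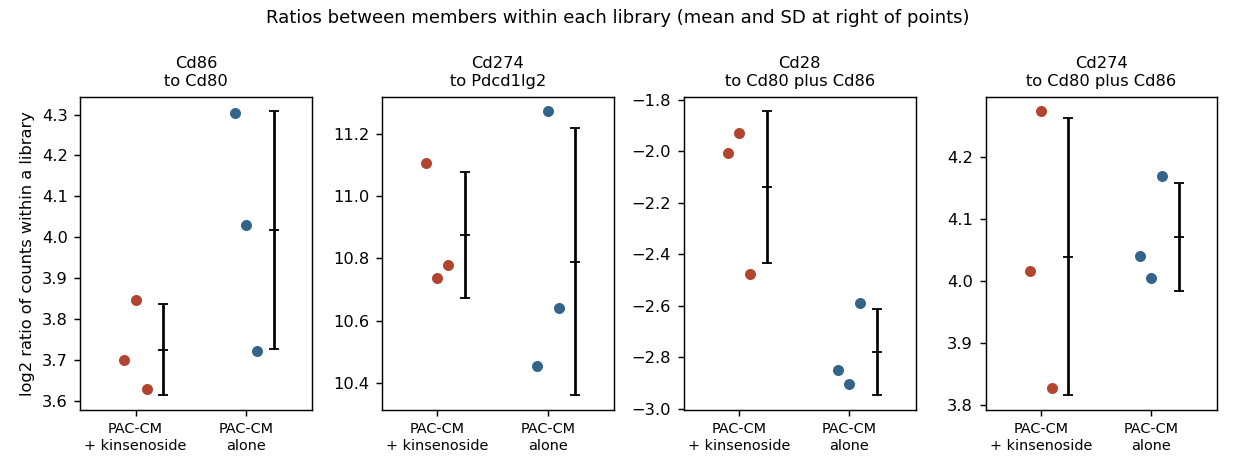
Log2 ratios of counts within each library for 4 pairs of genes or sums, PAC-CM with kinsenoside at the left and PAC-CM alone at the right of each panel; points are libraries, and the bars beside them are mean and SD (n = 3 each). Each panel has its own axis range. In the Cd28 to Cd80 plus Cd86 panel alone the 3 points of one group lie above the 3 of the other.

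Icosl encodes the ligand of ICOS, the inducible costimulator of T cells. The gene (ENSMUSG00000000732, plus strand, chr10:78069302-78083913) was low, at 4.77, 3.55 and 4.69 CPM with kinsenoside and 3.86, 4.47 and 4.10 CPM in PAC-CM. The groups overlapped, and its log2 fold change was 0.11 (adjusted p = 0.801, 95% interval of the fold 0.839 to 1.39). Icos itself had at most 13 counts in any library and was not tested.

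The PD-1 ligands are neighbours on chromosome 19, both on the plus strand and 22823 bases apart. Cd274 (ENSMUSG00000016496) lies at chr19:29367455-29388095 and Pdcd1lg2 (ENSMUSG00000016498) at chr19:29410919-29471161. Cd274 gave 75550 to 83717 counts with kinsenoside and 87881 to 91533 counts in PAC-CM, whereas Pdcd1lg2 gave 37 to 48 and 36 to 62. These counts are not scaled to the library totals, and in CPM the groups overlapped for both genes. Their promoter sequences are shown because these neighbours differ so widely in level. They are RefSeq sequences of GRCm38.p6, plus strand, from 250 bases before to 50 bases after the transcript start, at chr19:29367188-29367487 for Cd274 and chr19:29410669-29410968 for Pdcd1lg2. Capitals mark a match to the interferon response motif described below.
Cd274: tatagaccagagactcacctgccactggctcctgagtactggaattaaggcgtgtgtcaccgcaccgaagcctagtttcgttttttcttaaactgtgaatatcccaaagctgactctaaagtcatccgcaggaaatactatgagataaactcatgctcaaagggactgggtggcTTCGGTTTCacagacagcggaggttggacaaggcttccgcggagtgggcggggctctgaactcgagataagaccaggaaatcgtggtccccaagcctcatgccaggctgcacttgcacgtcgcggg
Pdcd1lg2: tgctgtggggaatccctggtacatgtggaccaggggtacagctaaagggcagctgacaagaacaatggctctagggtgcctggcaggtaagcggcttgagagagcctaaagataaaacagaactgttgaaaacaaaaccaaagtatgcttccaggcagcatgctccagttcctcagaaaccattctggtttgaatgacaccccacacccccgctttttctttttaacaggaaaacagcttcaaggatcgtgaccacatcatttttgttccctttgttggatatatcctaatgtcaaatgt

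Both strands were searched for 4 motifs, and the share of all 32817 RefSeq mouse promoters holding each is given as background. They were GAAANNGAA for interferon regulatory factors (8.55% of promoters), TTCNNNGAA for STAT factors (8.29%), GGGANTTCC for NF-kB (1.68%) and TGANTCA for AP-1 (7.81%). The Cd274 promoter held 1 match, to the interferon response motif on the minus strand, with its first plus-strand base at position -76 from the start. Those of Cd80 and Havcr2 each held 1 match to the AP-1 motif. Those of Pdcd1lg2, Icosl, Cd38 and Slamf1 held none of these letters, which covers this window only. Entries for Cd28, Cd86 and Cd40 were not found. A match is a description of the sequence and not evidence of binding.

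Cd274 was the steadiest of the 10 genes. It had 1927, 1984 and 1837 CPM in kinsenoside replicates 1 to 3 and 2053, 1929 and 1992 CPM in PAC-CM replicates 1 to 3. The groups overlapped, with a coefficient of variation of 3.86% with kinsenoside and 3.13% in PAC-CM. The log2 fold change was -0.01 (SE 0.0587, adjusted p = 0.957), and the 95% interval of the fold ran from 0.904 to 1.09. An antisense model, AC119228.1, shares 511 exon bases with Cd274 and had 511 to 652 counts with kinsenoside and 511 to 604 in PAC-CM, far below the counts of Cd274. Whether the counting used strand is not stated.

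For Pdcd1lg2, the 37 to 48 counts with kinsenoside and 36 to 62 counts in PAC-CM corresponded to 1.00 ± 0.144 CPM and 1.14 ± 0.348 CPM (SD, n = 3 each). The log2 fold change was -0.14 (adjusted p = 0.880), and the 95% interval of the fold, 0.571 to 1.45, was too wide to show or exclude a moderate change. With 1 added to each count, the ratio of Cd274 to Pdcd1lg2 was 2203, 1708 and 1757 with kinsenoside, against 1403, 2474 and 1598 in PAC-CM alone. The ratio did not separate the groups (log2 difference 0.08, exact permutation p = 0.8, adjusted 0.9). Cd274 relative to Cd80 plus Cd86 did not either, at 16.2, 19.4 and 14.2 counts per count with kinsenoside and 16.5, 16.1 and 18 in PAC-CM (log2 difference -0.03, exact permutation p = 0.9, adjusted 0.9).

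Irf1, an interferon-induced transcription factor known to activate the PD-L1 gene, is in the list of PD-L1 regulators and moved differently from Cd274. It had 83.4, 82.2 and 87.4 CPM with kinsenoside and 153, 145 and 161 CPM without, with no overlap. Its log2 fold change was -0.81 (adjusted p = 0.00248), and its mean with kinsenoside was 55.2% of that in PAC-CM. An antisense gene, Gm17334, shares 135 exon bases with Irf1 and had 83 to 96 counts with kinsenoside and 67 to 73 in PAC-CM. Of the 17 tested PD-L1 regulators, Irf1 fell while 16 stayed short of the threshold, beside 0.302% of all tested genes called as lower. The list's median was -0.03. An unadjusted edgeR p under 0.05 was reached by 4 of the 17, against 14.9% of all tested genes. The interferon-gamma signalling gene Jak2, named after its values were seen, was at 152 ± 7.26 CPM with kinsenoside and 206 ± 11.4 CPM in PAC-CM (log2 fold change -0.39, adjusted p = 0.0623). It passed with DESeq2, with total count scaling and with no filter on low counts.

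Cd40 encodes the TNF receptor family member through which T cells license antigen-presenting cells. The gene (ENSMUSG00000017652, plus strand, chr2:165055627-165072948) had 114, 141 and 138 CPM with kinsenoside and 163, 140 and 151 CPM in PAC-CM. The groups overlapped only through PAC-CM replicate 2, which lay below kinsenoside replicate 2. The log2 fold change was -0.16 (SE 0.0959, adjusted p = 0.486), with a 95% interval of the fold from 0.769 to 1.04. The estimate stayed below 0 in 15 of 15 alternatives and passed in none of them.

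Of 14 tested genes of CD40 and alternative NF-kB signalling, none was called by edgeR or limma-voom. Their median was -0.15, with 11 estimates below 0 and 3 above, against 48.9% above 0 among all tested genes. An unadjusted edgeR p under 0.05 was reached by 3 of the 14, against 14.9% of all tested genes. The most abundant were Nfkb1, the p105 precursor subunit, at 77.8 ± 18.8 CPM with kinsenoside and 97.0 ± 10.2 CPM without (adjusted p = 0.524), and the TRAF-binding adaptor Tank, at 76.0 ± 3.22 and 87.0 ± 2.10 CPM (adjusted p = 0.321). DESeq2 called 2 of the 14, Traf2 and Traf5, both with lower estimates, against 3.80% of the genes it adjusted.

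Cd38 encodes an ectoenzyme that degrades NAD and is induced in activated mouse macrophages. The gene (ENSMUSG00000029084, plus strand, chr5:43868553-43912375) had 288, 315 and 377 CPM with kinsenoside and 307, 288 and 315 CPM in PAC-CM. The groups overlapped, and kinsenoside replicate 3 was the highest library. The log2 fold change was 0.15 (adjusted p = 0.528, 95% interval of the fold 0.948 to 1.304). Of 17 tested genes of NAD consumption and salvage none was called, with a median of -0.06. Among them Bst1, a relative of Cd38 with the same type of activity, was at 752 ± 117 CPM with kinsenoside and 611 ± 65.4 CPM without (log2 fold change 0.34, adjusted p = 0.257), and Parp14 at 844 ± 62.3 and 777 ± 58.0 CPM (adjusted p = 0.376).

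Slamf1 encodes a receptor that binds itself on neighbouring cells and, in mouse macrophages, recognises Gram-negative bacteria. It was the member with the largest spread after Pdcd1lg2 in the edgeR fit. The gene (ENSMUSG00000015316, plus strand, chr1:171767127-171801184) had 155, 134 and 100.4 CPM in kinsenoside replicates 1 to 3 and 215, 160 and 128 CPM in PAC-CM replicates 1 to 3. The mean was 130 ± 27.4 CPM with kinsenoside and 167 ± 44.05 CPM in PAC-CM. The groups overlapped, and the log2 fold change of -0.32 (SE 0.238, adjusted p = 0.593) had a 95% interval of the fold from 0.532 to 1.20. Of 15 tested genes of the SLAM family and its adaptors none was called, with a median of 0.05. Slamf7 was at 858 ± 58.4 CPM with kinsenoside and 853 ± 50.1 CPM without. Cd84 was at 651 ± 8.90 and 558 ± 5.82 CPM with no overlap (log2 fold change 0.27, adjusted p = 0.0866).

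Havcr2 encodes TIM-3, an inhibitory receptor of T cells and myeloid cells. The gene (ENSMUSG00000020399, plus strand, chr11:46454935-46481255) had 58.7, 43.1 and 52.6 CPM with kinsenoside and 49.7, 57.0 and 54.0 CPM in PAC-CM. The kinsenoside libraries held both the highest and the lowest value. The log2 fold change was -0.01 (adjusted p = 0.977, 95% interval of the fold 0.825 to 1.19). Its ligand gene Lgals9, encoding galectin-9, was at 838 ± 49.7 CPM with kinsenoside and 840 ± 22.8 CPM without (adjusted p = 0.817), and Bag6 at 75.1 ± 6.12 and 79.9 ± 5.57 CPM (adjusted p = 0.850). These were the most abundant of 5 tested genes of the TIM list, of which none was called (median 0.04).

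Unlike Cd28, the T cell partner genes Pdcd1, Ctla4, Icos and Cd40lg had few or no counts. Pdcd1, the PD-1 gene, had at most 6 counts in any library and Ctla4 at most 3, and Cd40lg was at 0 in all. Of the 12 other genes of the B7 and CD28 family list present in the table, 3 were abundant enough to be tested. None was called (median -0.27). They were Cd276, Vsir and Tnfrsf14, a TNF receptor family gene whose log2 fold change of -0.27 (edgeR adjusted p = 0.328) was that median. Cd276, the B7-H3 gene, was at 24.6 ± 1.66 CPM with kinsenoside and 32.7 ± 2.43 CPM in PAC-CM, without overlap (log2 fold change -0.37, adjusted p = 0.113; called by DESeq2). Vsir, which encodes the inhibitory B7 relative VISTA, varied between libraries of the same group, with 171, 66.3 and 88.2 CPM with kinsenoside and 70.3, 83.3 and 173 CPM in PAC-CM. Kinsenoside replicate 1 and PAC-CM replicate 3 were far above the others of their group, and its log2 fold change of 0.04 has an SE of 0.541.

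Among 9 tested costimulators of the TNF family none was called, with a median of -0.01. Tnfrsf9, the 4-1BB receptor gene, was at 22.3 ± 4.49 CPM with kinsenoside and 23.1 ± 1.26 CPM without, and its ligand gene Tnfsf9 at 13.0 ± 1.59 and 13.0 ± 1.09 CPM. Among 13 tested signalling partners of CD28 none was called, with a median of 0.01. Flna was at 618 ± 20.2 CPM with kinsenoside and 669 ± 29.3 CPM without (adjusted p = 0.644), and Vav1 at 316 ± 27.6 and 324 ± 12.1 CPM (adjusted p = 0.984). Apart from the CD40 list, given above, the lists in which edgeR called no gene were read at an unadjusted p under 0.05. That level was reached by 2 of 3 in the B7 and CD28 family list (Cd276 and Tnfrsf14), 2 of 9 in the TNF family and 2 of 15 in the SLAM list. The TIM list had 1 of 5, the NAD list 3 of 17 and the CD28 partners 1 of 13, against 14.9% of all tested genes. DESeq2 called 1, 2, 2, 0, 0 and 1 genes in the same lists, against 3.80% of the genes it adjusted, and limma-voom called 0 in each, against 0.281% of all tested genes.

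**Figure D4:**
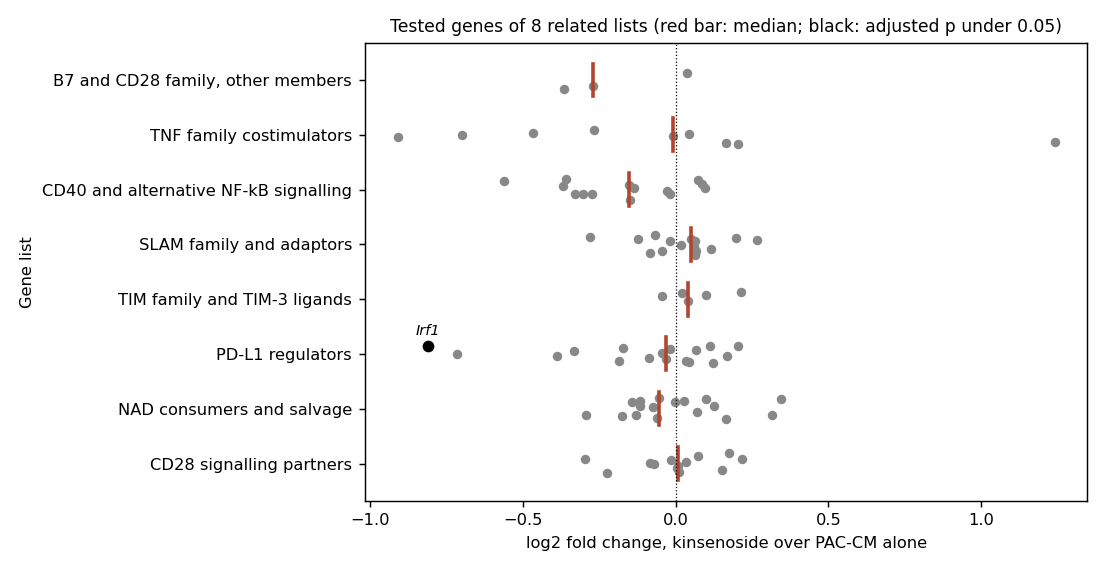
Log2 fold change, PAC-CM with kinsenoside over PAC-CM alone, of every tested gene in 8 lists related to the 10 genes; each point is a gene, red bars are list medians and black marks an adjusted p under 0.05 (edgeR, 3 libraries per group). Irf1, at -0.81, is the single gene past the threshold among 93 distinct tested genes, against 0.511% of all tested genes.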

How the data were processed

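Per the labels' protocols, mRNA-enriched libraries from 1 µg of total RNA were sequenced in paired-end mode at 150 bases. The authors deposited a table of whole-number counts, with Ensembl genes as rows and libraries as columns, and these counts were used unchanged. The submitters' processing notes list STAR, StringTie 1.3.1c and DESeq2 1.16.1 among their tools, and the build GRCm38. Which of them produced the counts is not given in these sources. A count of 3 was more frequent (6202 cells) than 2 (5128), which rounding of estimated values could give.

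Differences were tested in R 4.3.3 with edgeR 4.0.16: filterByExpr, TMM scaling, robust quasi-likelihood fits on the group, two-sided, Benjamini-Hochberg over 13901 genes. SE was taken as the size of the log2 fold change over the root of the F statistic, and intervals are 95%. CPM is the count scaled to a library total of 1e6, given as mean ± SD; per-kilobase values use the summed exon length of GENCODE M21 (GRCm38), which lists 55154 of the identifiers. Centred log2 CPM used a prior count of 2, and ratios an added count of 1.

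Members and lists were chosen with earlier results of these data known. Named genes were the members, in each list the called genes or else the 2 most abundant, the 5 genes nearest to a called member, and the 2 most abundant of each cell type list. Alternatives were DESeq2 1.42.0, limma-voom (limma 3.58.1), scaling by RLE, by upper quartile or by total count alone, no filter, a filter of over 1 CPM in 3 or more libraries, a block for the replicate number, dispersion without the robust option, each library left out, and an added count of 0.5 for ratios. Replicates differed from each other by more than sampling noise (chi-square per degree of freedom at least 25.9 in every pair of libraries). A planned comparison of protein sequences was not made.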

Additional observations from a re-analysis of the deposited data

How the results depend on the processing

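The number of genes called over the whole table was 71, and 441 with DESeq2, 39 with limma-voom, 42 with the replicate number as a block and 36 with non-robust estimates; with 1 library left out it was between 13 (PAC-CM replicate 1 left out) and 98 (kinsenoside replicate 1 left out). Of the 10 members 1 was called, and 0 with limma-voom, the block or non-robust estimates; with 1 library left out it was 0 or 1. The adjusted p of Cd28 was 0.0636, 0.0769 and 0.0587 in those 3 settings. In the 8 lists, with 93 distinct tested genes, 1 gene was called, against 0.511% of all tested genes. DESeq2 called 10, against 3.80% of the genes it adjusted. The number was 2 with total count scaling, 2 with no filter, and 1 whichever library was left out. The cause of these differences was not tested.

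Whether same-numbered libraries of the groups were paired is not in the labels. Their deviations from the group means correlated at 0.00874, -0.101 and 0.135 across genes for replicates 1 to 3. Differently numbered libraries correlated at -0.173 to 0.164. With 3 libraries per group these values cannot settle the pairing. Apart from Cd28, the block changed no member's call (edgeR adjusted p of Slamf1 0.119 with it and 0.593 without). By ratio, the block gave log2 differences of 0.64 for Cd28 to Cd80 plus Cd86 and -0.29 for Cd86 to Cd80 (exact sign-flip p = 0.25 for both, the smallest that 3 pairs allow).

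Estimates that had not passed and lay near 0 changed sign. Cd86 (0.01) was at -0.0115 with upper quartile and -0.0383 with total count scaling. With 1 library left out, Cd86 ranged from -0.0724 to 0.0939, Cd274 from -0.0325 to 0.0141, Pdcd1lg2 from -0.36 to 0.0628 and Havcr2 from -0.12 to 0.10. The ratio of Cd274 to Pdcd1lg2 ranged from -0.0831 to 0.33, that of Cd274 to Cd80 plus Cd86 from -0.15 to 0.0738, that of Cd86 to Cd80 from -0.44 to -0.15 and that of Cd28 to Cd80 plus Cd86 from 0.54 to 0.81. Pdcd1lg2, Icosl and Cd80 had the fewest counts of the 10 members, and the part of depth in these ranges was not tested.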

Other observations

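The TNF family list held estimates at both ends of the range while its median lay near 0. Tnfsf14, which encodes the T cell costimulator LIGHT, was at 9.56 ± 3.76 CPM with kinsenoside and 4.18 ± 0.591 CPM in PAC-CM (log2 fold change 1.24, edgeR adjusted p = 0.1101). Kinsenoside replicates 1 to 3 had 13.9, 7.39 and 7.39 CPM, so replicate 1 was far above the other kinsenoside libraries. All 3 lay above the PAC-CM libraries, as did those of 6.86% of all tested genes. Tnfsf8, which encodes the CD30 ligand, was at 2.34 ± 0.389 CPM with kinsenoside and 4.54 ± 0.719 CPM in PAC-CM (log2 fold change -0.91, edgeR adjusted p = 0.0861). Its kinsenoside libraries all lay below the PAC-CM libraries, as did those of 15.7% of all tested genes. DESeq2 called both. They were chosen after their values were seen.

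Among the SLAM family, Slamf9 was at 93.5 ± 3.83 CPM with kinsenoside and 117 ± 0.531 CPM in PAC-CM (log2 fold change -0.28, edgeR adjusted p = 0.0983; called by DESeq2), opposite in sign to Cd84. Among the signalling partners of CD28, Pik3r1, the p85 regulatory subunit of PI3-kinase, was at 39.0 ± 2.34 CPM with kinsenoside and 49.3 ± 1.54 CPM in PAC-CM (log2 fold change -0.30, edgeR adjusted p = 0.1099; called by DESeq2). The choice of these genes was likewise made after seeing their values.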
